A study of Homo sapiens with 9 samples.

Results

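The matrix genes followed here through the treatments were THBS1, FN1, COL8A1, COL4A1, COL4A2, LAMC1, LAMB3, EFEMP1, FBLN1 and HSPG2. They were taken by symbol from the deposited gene lists and make up 10 of the 27615 genes of the longest list. These genes were picked because earlier results of the same libraries had shown many of them lower in treated cells. Their levels and differences are therefore given as a description with no test. THBS1, FN1, COL8A1, COL4A1, COL4A2, LAMC1, LAMB3 and HSPG2 were listed for all 9 libraries, as were 4237 genes in all. EFEMP1 was listed for 8 libraries and FBLN1 for 7. A gene that is missing from a list is missing because the list ends earlier, and it was not taken as 0.

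The extracellular matrix is the network of secreted proteins on which cells sit. Laminin trimers and type IV collagen each form a sheet in the basement membrane, and perlecan and nidogens link the sheets. Fibronectin forms fibrils that integrins bind, whereas matricellular proteins such as thrombospondin-1 act on cell contact and signaling rather than as scaffold. In breast cancer these proteins are known for their part in adhesion, migration and invasion.

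The RNA came from MDA-MB-231 cells, an established human triple-negative breast cancer line grown in culture. Cells received vehicle (DMSO), rimonabant, which blocks the cannabinoid receptor CB1, or TXX-1-10, a compound derived from rimonabant, with 3 libraries per treatment. How much compound the sequenced cells received, and for how long, is not given in the sources used here, so the compounds cannot be said to have been compared at matched doses. Nothing says that the 3 libraries of a treatment came from separate cultures, so p-values measure only the spread between these libraries, which may be technical.

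Values are counts of reads per gene and FPKM, which is the count per kilobase of gene, scaled to the library total. The library totals behind the FPKM values were 17078370 to 19277808 reads. The defining markers of the line were present, with a VIM level of 224 to 329 FPKM and a CD44 level of 27.4 to 48.2 FPKM, whereas ESR1 and PGR were each listed for 4 libraries, at up to 0.031 and 0.046 FPKM. ERBB2, the other receptor gene that defines the triple-negative class, was listed for all 9 libraries at 7.0 to 9.52 FPKM and so was not absent. Of 9 fibroblast markers, which include COL1A1, at most 8 were listed in any library, and the listed ones summed to no more than 2.31 FPKM. Listed endothelial markers (at most 6 of 6) summed to no more than 1.5 FPKM and listed leukocyte markers (at most 5 of 6) to no more than 0.669 FPKM in any library. Markers missing from a list are not in these sums, which therefore cannot be compared between treatments. The part of these markers in the results was not tested. Rimonabant replicate 1 and TXX-1-10 replicate 3 stood apart from the other libraries. Relative to the mean of the other libraries of their treatment, their levels were lower the longer the gene. Spearman rho was -0.693 and -0.692 across genes, which are not independent. Values of the members are therefore also given without these libraries. Because levels are scaled to the library total, neither cell number nor RNA per cell can be read from them.

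The start of 8 members could be matched to a RefSeq window of 250 bases before the gene start (GRCh38.p14). COL8A1 and EFEMP1 were not matched. LAMB3 had 3 such windows, of which the first was used. The median GC content of the 8 windows was 77.6%, with a range of 64.0% to 82.8%, against a median of 58.0% over all 34943 windows. Each window was searched on both strands for 6 short motifs. The GC box (GGGCGG) was in all 8, and in 42.5% of all windows. The CCAAT box (CCAAT) was in those of THBS1, FN1, COL4A1 and COL4A2, and in 32.0% of all windows. The TEAD motif (GGAATG) was in that of THBS1 alone among the 8, and in 11.9% of all windows. The CRE (TGACGTCA) was in that of FN1 alone, and in 1.63% of all windows. The AP-1 motif (TGANTCA) and the TATA box (TATAAA) were in none of the 8, and in 6.59% and 10.8% of all windows. The third LAMB3 window, which was not used, held 1 AP-1 motif and 1 CCAAT box. A match is a description of the letters only.

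The windows of THBS1 and LAMB3 are shown because THBS1, together with EFEMP1, kept the smallest share of its vehicle level under TXX-1-10 and LAMB3 the largest. THBS1 and EFEMP1 did not differ beyond their errors. Capitals mark matches to the GC box, the CCAAT box and the TEAD motif on either strand. The THBS1 stretch is chr15:39580829-39581078 on the plus strand and holds 4 GC boxes, 1 CCAAT box and 1 TEAD motif. The LAMB3 stretch is chr1:209652467-209652675 on the minus strand, which is the 209 bases of its window that lie before the exons of GENCODE 29, and it holds 1 GC box.
THBS1: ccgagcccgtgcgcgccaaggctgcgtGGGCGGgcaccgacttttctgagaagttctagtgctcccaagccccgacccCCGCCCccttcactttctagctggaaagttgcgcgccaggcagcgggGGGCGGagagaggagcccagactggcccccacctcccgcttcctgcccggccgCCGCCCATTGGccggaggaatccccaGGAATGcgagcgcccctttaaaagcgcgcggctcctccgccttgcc
LAMB3: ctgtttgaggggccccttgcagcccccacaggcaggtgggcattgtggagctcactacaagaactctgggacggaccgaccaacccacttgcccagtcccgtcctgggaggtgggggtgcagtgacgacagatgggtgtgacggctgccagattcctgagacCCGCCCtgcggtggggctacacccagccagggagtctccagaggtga

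The chains of the most widespread type IV collagen are encoded by a head-to-head pair of genes. The RefSeq starts of COL4A1 (minus strand) and COL4A2 (plus strand) lie on chromosome 13 at 110307157 and 110307284, with 126 bases between them.

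In vehicle-treated cells FN1, THBS1 and LAMC1 had the highest levels of the 10, with 62.7 ± 0.895, 60.6 ± 1.01 and 59.5 ± 1.16 FPKM (SD, n = 3). The vehicle libraries of THBS1 and LAMC1 overlapped in level, so this pair did not differ beyond its spread, whereas those of FN1 lay just above those of THBS1. LAMB3 followed with 45.1 ± 0.629, EFEMP1 with 26.2 ± 1.29, COL4A2 with 14.7 ± 0.169, HSPG2 with 12.5 ± 0.684, COL8A1 with 11.2 ± 0.200, COL4A1 with 6.05 ± 0.197 and FBLN1 with 1.48 FPKM (2 libraries). The gene length used for FPKM joins all exons of a gene, which for FN1 gives 17315 bases against 8905 in its longest coding transcript. On the longest coding transcript FN1 stood at 122 and COL4A2 at 43.6, and COL4A2 then passed EFEMP1, at 34.3.

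Under both compounds most of the 10 genes had lower levels than under vehicle, and for most of them the level under TXX-1-10 was the lowest. LAMB3 was the exception under TXX-1-10, where it stood at its vehicle level, and LAMC1 and FN1 had levels that overlapped between the compounds. A gene was called changed when its log2 fold change (log2FC) was at least 1 in size and its adjusted p in edgeR's quasi-likelihood test over all tested genes was under 0.05. Of the 8 members in the fit on 9 libraries, 6 were called lower under TXX-1-10, beside 7.6% of all 4236 tested genes. Under rimonabant 4 were called lower, beside 0.614% of all genes. Between the compounds 1 was called lower under TXX-1-10, beside 4.34%. Because the same contrasts chose the members, nothing is read from these counts. The median log2FC of the 8 was -1.29 under TXX-1-10 and -0.86 under rimonabant, and that of all tested genes was -0.09 and -0.02. The comparisons share their vehicle libraries.

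By the FPKM of single libraries, 7 of the 8 had every TXX-1-10 library below every vehicle library, beside 46.3% of all tested genes, and 8 of 8 had every rimonabant library below every vehicle library, beside 31.5%. Between the compounds 5 had every TXX-1-10 library below every rimonabant library, beside 38.8%, and LAMB3 had every TXX-1-10 library above, beside 24.8%. Complete separation of 3 libraries from 3 was thus common among all genes here, and nothing is read from these counts.

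**Figure D1:**
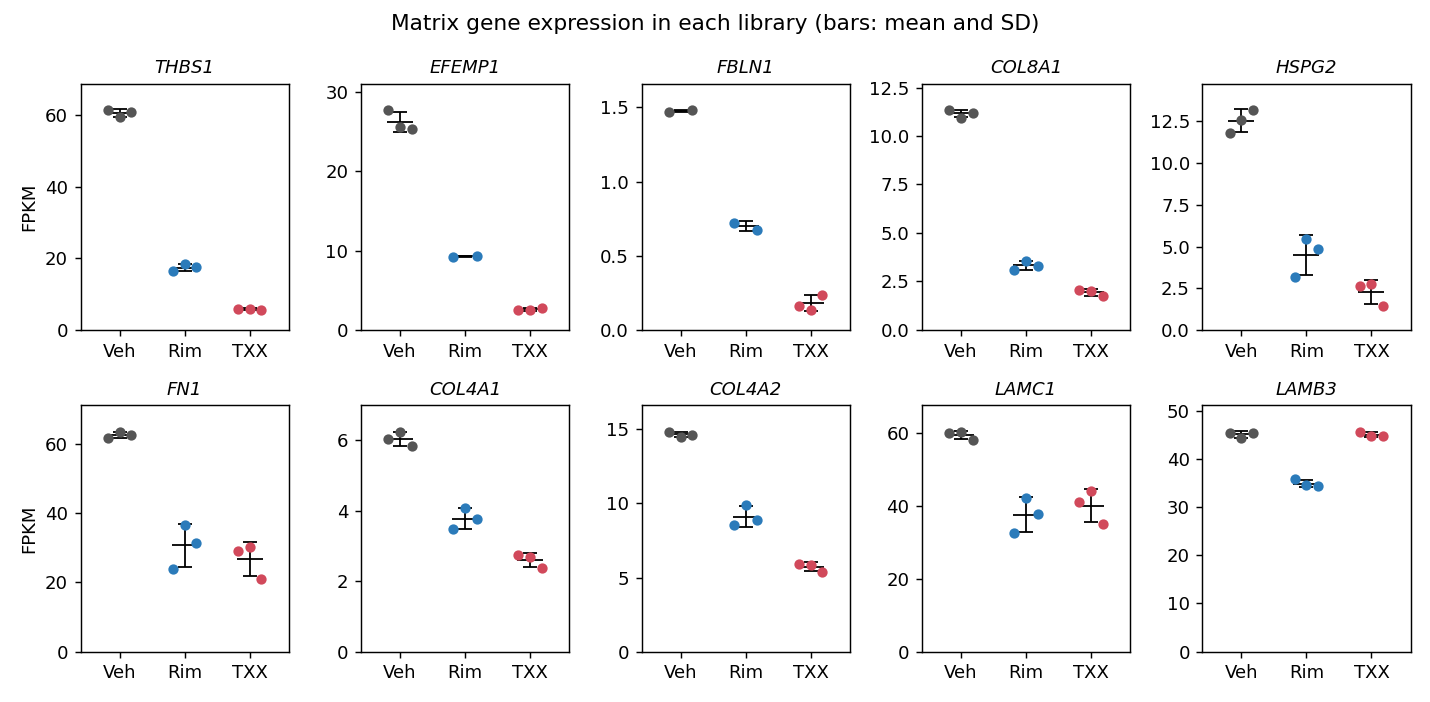
Level of each of the 10 genes in FPKM (vertical axes, linear from 0) in vehicle (Veh), rimonabant (Rim) and TXX-1-10 (TXX) libraries. Points are libraries and bars are the mean and SD, with 2 rimonabant libraries for EFEMP1 and 2 vehicle and 2 rimonabant libraries for FBLN1. Vehicle libraries lie above all treated ones in 9 panels, and in that of LAMB3 the TXX-1-10 libraries (44.7 to 45.7) overlap the vehicle libraries (44.4 to 45.5).

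THBS1 (ENSG00000137801, GRCh38 chr15:39581079-39599466) encodes thrombospondin-1, a matricellular glycoprotein that binds CD47, CD36 and integrins. Its level was 61.4, 59.5 and 60.9 FPKM in vehicle libraries, 16.4, 18.4 and 17.5 with rimonabant and 5.98, 5.94 and 5.46 with TXX-1-10. The 3 treatments did not overlap, and TXX-1-10 was lowest. The mean under rimonabant was 28.7% of the vehicle level by the fit, a log2FC of -1.80 (standard error, SE, 0.06). Under TXX-1-10 it was 9.56%, a log2FC of -3.39 (SE 0.06). Between the compounds the log2FC was -1.59, with a 95% interval of -1.72 to -1.46. Without rimonabant replicate 1 and TXX-1-10 replicate 3 the values against vehicle were -1.76 and -3.35. Exons of THBS1 share 448 bases (4.89%) with FSIP1 on the other strand, whose mean level was 0.0650 FPKM, and whether counting used the strand is not given in the sources used here.

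EFEMP1 (ENSG00000115380, chr2:55865967-55924139) and FBLN1 (ENSG00000077942, chr22:45502238-45601135) encode fibulins, glycoproteins of elastic fibres and basement membranes. EFEMP1 had 27.7, 25.6 and 25.3 FPKM in vehicle libraries, 9.22 and 9.29 in rimonabant replicates 2 and 3, and 2.45, 2.52 and 2.81 under TXX-1-10. These groups did not overlap. Its log2FC was -1.50 (SE 0.07) under rimonabant and -3.34 (SE 0.07) under TXX-1-10, in the fit on 8 libraries. FBLN1 had few reads, with 183 and 186 in vehicle replicates 1 and 3, 99 and 91 in rimonabant replicates 2 and 3, and 23, 18 and 32 under TXX-1-10. Its mean of 0.698 FPKM over the 7 libraries was below the minimum of 1 used elsewhere, so it was fitted without that filter. The log2FC of FBLN1 was -1.08 (SE 0.18) under rimonabant and -3.04 (SE 0.19) under TXX-1-10. Without TXX-1-10 replicate 3 the log2FC under TXX-1-10 was -3.40 for EFEMP1 and -3.30 for FBLN1. On log2(FPKM + 1), a scale that shrinks low levels, the value of FBLN1 under TXX-1-10 was -1.07 and that under rimonabant was -0.54, short of the threshold.

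COL8A1 (ENSG00000144810, chr3:99638475-99799226) encodes a chain of the short network-forming type VIII collagen. Its level was 11.3, 10.9 and 11.2 FPKM in vehicle libraries, 3.11, 3.58 and 3.30 with rimonabant and 2.06, 1.98 and 1.75 with TXX-1-10. No group overlapped another. The log2FC was -1.75 (SE 0.07) under rimonabant and -2.53 (SE 0.07) under TXX-1-10, and between the compounds it was -0.79 (95% interval -0.96 to -0.62). Without the libraries that stood apart the values against vehicle were -1.70 and -2.47.

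COL4A1 (ENSG00000187498, chr13:110148963-110307233) and COL4A2 (ENSG00000134871, chr13:110305812-110513209) encode the chains of the ubiquitous type IV collagen trimer. COL4A1 had 6.04, 6.24 and 5.85 FPKM in vehicle libraries, 3.49, 4.09 and 3.76 with rimonabant and 2.75, 2.67 and 2.38 with TXX-1-10. COL4A2 had 14.8, 14.5 and 14.6 FPKM in vehicle libraries, 8.53, 9.91 and 8.87 with rimonabant and 5.95, 5.84 and 5.41 with TXX-1-10. Both genes stepped down from vehicle to rimonabant to TXX-1-10 with no overlap. Their log2FCs were -0.68 and -0.69 under rimonabant, below the fold threshold, and -1.22 and -1.35 under TXX-1-10 (SEs 0.06 to 0.07). Without the libraries that stood apart COL4A1 had -0.62 and -1.16, and COL4A2 had -0.64 and -1.31, in the same order. The ratio of COL4A2 to COL4A1 FPKM was 2.43 ± 0.0928 in vehicle, 2.41 ± 0.0462 in rimonabant and 2.21 ± 0.0574 in TXX-1-10 libraries (SD, n = 3). The TXX-1-10 ratios (2.17 to 2.27) lay below the vehicle ratios (2.32 to 2.50), a difference that was not tested. The pair shares no exon.

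HSPG2 (ENSG00000142798, chr1:21822245-21937297) encodes perlecan, the large heparan sulfate proteoglycan of basement membranes. Its level was 11.8, 12.6 and 13.2 FPKM in vehicle libraries, 3.18, 5.47 and 4.86 with rimonabant and 2.61, 2.74 and 1.46 with TXX-1-10. The lowest value of each treated group came from the library that stood apart. The log2FC was -1.48 (SE 0.23) under rimonabant and -2.46 (SE 0.24) under TXX-1-10, and without these libraries it was -1.28 and -2.23. Its exons share 2121 bases (11.7%) with LDLRAD2 on the other strand, which had a mean of 0.113 FPKM.

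FN1 (ENSG00000115414, chr2:215360440-215436172) encodes fibronectin. Its level was 61.8, 63.6 and 62.7 FPKM in vehicle libraries, 24.0, 36.6 and 31.5 with rimonabant and 29.1, 30.3 and 21.1 with TXX-1-10. Both treated groups lay below vehicle and overlapped each other. The log2FC was -1.03 (SE 0.16) under rimonabant and -1.23 (SE 0.16) under TXX-1-10. Between the compounds it was -0.20, with a 95% interval of -0.55 to 0.16, which does not show that they act alike. Without rimonabant replicate 1 and TXX-1-10 replicate 3 the values against vehicle were -0.88 and -1.08, so that FN1 no longer passed the fold threshold under rimonabant.

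**Figure D2:**
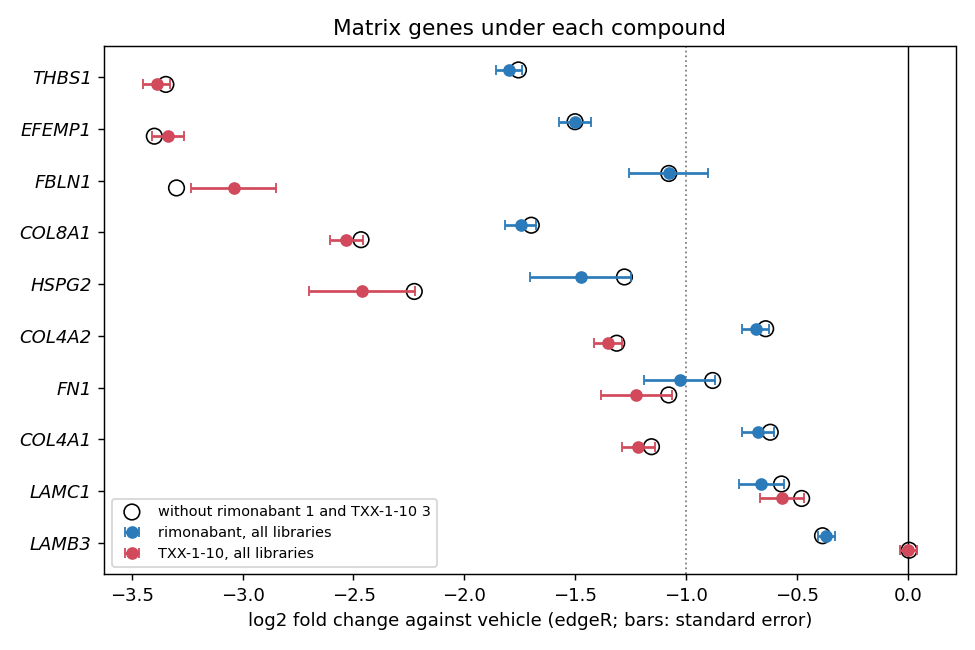
Log2FC of each gene against vehicle (horizontal axis) under rimonabant (blue) and TXX-1-10 (red). Filled points are the fits with all libraries that list the gene, bars are SEs, open circles leave out rimonabant replicate 1 and TXX-1-10 replicate 3, and the dotted line marks the fold threshold. THBS1 (-3.39) and EFEMP1 (-3.34) lie lowest under TXX-1-10, within their SEs of each other, and LAMB3 lies at 0, while FN1 under rimonabant moves from -1.03 to -0.88 without these libraries.

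The 2 libraries that stood apart also had the lowest levels of most members. The median tested gene was 5771 bases long, and 8 of the 10 members were longer, with a range over all 10 of 3962 to 19293 bases. Of the 8 members listed in every library, 7 had their lowest rimonabant level in replicate 1, and 7 had their lowest TXX-1-10 level in replicate 3. Over all tested genes the lowest level fell in these libraries for 37.1% and 37.6%. HSPG2 was the most affected, with a level in rimonabant replicate 1 that was 0.617 of the mean of the other 2 libraries, and 0.543 in TXX-1-10 replicate 3. LAMB3, the shortest of the 8, stood at 1.04 and 0.992. With a correction for the length trend in each library, the log2FCs under TXX-1-10 were -3.32 for THBS1, -1.13 for FN1 and -2.37 for HSPG2. This correction also shifted the median of all tested genes by 0.097. TMM, a scaling with no length term, gave -3.29, -1.12 and -2.36. The part of gene length in the corrected values therefore cannot be told apart from that of scaling.

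**Figure D3:**
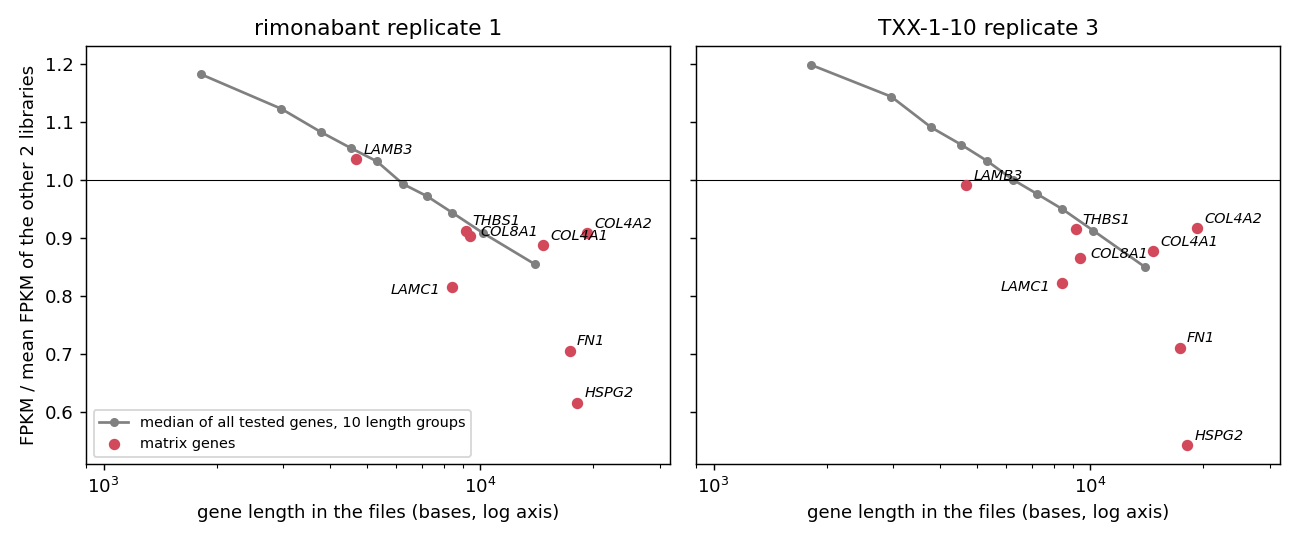
Level of each gene in the library that stood apart, divided by the mean of the other 2 libraries of its treatment (vertical axis), against gene length (horizontal log axis). Red points are the 8 members listed in every library and the grey line is the median over 10 length groups of all tested genes. In both panels the grey line falls as length grows, with FN1 and HSPG2 below it at 0.706 and 0.617 (left) and 0.711 and 0.543 (right). COL4A2, the longest member, lies at 0.909 (left) and 0.917 (right), above the median of the longest length group (0.856 and 0.851).

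Laminins are trimers of an alpha, a beta and a gamma chain. LAMC1 (ENSG00000135862, chr1:183023460-183145592), the gamma chain of most laminins, had 60.0, 60.4 and 58.2 FPKM in vehicle libraries, 32.7, 42.3 and 37.8 with rimonabant and 41.2, 44.1 and 35.1 with TXX-1-10. The treated groups lay below vehicle and overlapped each other. Its log2FC was -0.66 (SE 0.10) under rimonabant and -0.57 (SE 0.10) under TXX-1-10, both below the fold threshold. Between the compounds it was 0.09 (95% interval -0.13 to 0.32). Leaving out the libraries that stood apart gave -0.57 and -0.48 against vehicle. LAMB3 (ENSG00000196878, chr1:209614870-209652466), the beta chain of laminin-332, had 45.5, 44.4 and 45.4 FPKM in vehicle libraries, 35.7, 34.6 and 34.3 with rimonabant and 45.7, 44.7 and 44.8 with TXX-1-10. It was lower under rimonabant in every library and overlapped vehicle under TXX-1-10. The log2FC was -0.37 (SE 0.04) under rimonabant, and -0.00058 under TXX-1-10 with a 95% interval of -0.09 to 0.09.

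LAMA3, an alpha chain that pairs with LAMB3, had 4.12, 4.5 and 4.19 FPKM in vehicle libraries, 3.38 and 2.79 in rimonabant replicates 2 and 3, and 2.25, 2.29 and 1.43 under TXX-1-10. It fell by 1.10 on the log2 scale under TXX-1-10 (SE 0.14, edgeR adjusted p = 1.44e-05 in the fit on 8 libraries). Without TXX-1-10 replicate 3 as well, its log2FC was -0.91, short of the threshold.

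Among the partners of LAMC1, LAMA5 differed between the compounds. Its level was 13.8, 15.5 and 16.9 FPKM in vehicle libraries, 6.87, 9.74 and 8.86 with rimonabant and 21.3, 22.4 and 15.9 with TXX-1-10. It was higher under TXX-1-10 than under rimonabant by 1.23 on the log2 scale (SE 0.15, edgeR adjusted p = 5.81e-05). Against vehicle neither compound passed the fold threshold (log2FCs of 0.37 and -0.86). LAMB1, a beta chain, came to a log2FC of -0.99 under TXX-1-10 (edgeR adjusted p = 2.5e-07), just short of the threshold. LAMB2, another beta chain, had 0.04 (edgeR adjusted p = 0.633). LAMA4 and NID1 were listed for too few libraries to be fitted.

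**Figure D4:**
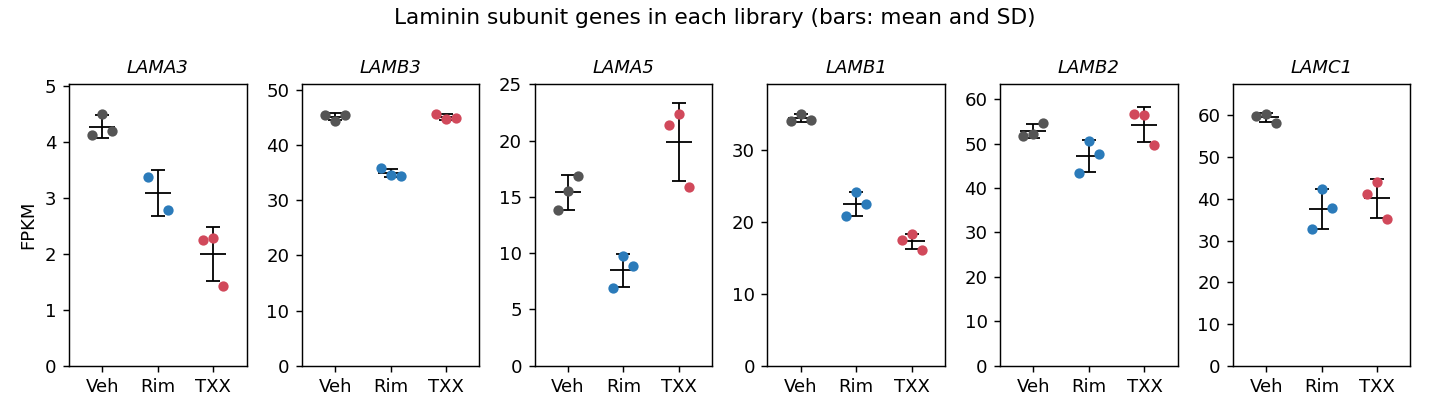
Level of 6 laminin subunit genes in FPKM (vertical axes, linear from 0) in vehicle (Veh), rimonabant (Rim) and TXX-1-10 (TXX) libraries, with points for libraries and bars for the mean and SD. LAMA3 has 2 rimonabant libraries. LAMA5 is higher in all TXX-1-10 libraries (15.9 to 22.4) than in all rimonabant libraries (6.87 to 9.74), and LAMB3 under TXX-1-10 overlaps vehicle.

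The make-up of the matrix transcripts differed between treatments. The FPKM of the 8 members listed in every library summed to 272.3 ± 0.360 in vehicle, 141 ± 13.9 in rimonabant and 130 ± 11.3 in TXX-1-10 libraries (SD, n = 3). THBS1 took 22.3% of this sum in vehicle, 12.4% in rimonabant and 4.46% in TXX-1-10 libraries. LAMB3 took 16.6%, 24.9% and 34.8%. These shares describe the 8 chosen genes only.

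The genes whose levels followed THBS1 most closely over the 9 libraries were HNRNPU, SYNCRIP, CRIM1, TMEM123 and CBX5, with Pearson r of log2(FPKM + 1) from 0.998 to 0.999. The 9 libraries form 3 treatment groups, so r mostly describes the group means. Of the members, COL4A2 ranked 9th of all tested genes with an r of 0.997 and COL4A1 36th. COL8A1, HSPG2, FN1 and LAMC1 had ranks of 145, 211, 723 and 1335, with r of 0.980, 0.970, 0.903 and 0.779. LAMB3 had an r of 0.055.

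Beyond the 10 genes, 155 further matrix genes in 7 lists were considered, of which 43 entered the fit on 9 libraries. With TXX-1-10, 13 of the 43 changed, with 3 higher and 10 lower, beside 11.8% of all tested genes. Rimonabant changed 1, beside 1.13%. Between the compounds 7 were changed, with 2 higher and 5 lower under TXX-1-10, beside 5.93%. Median log2FCs of the 43 were -0.36, -0.13 and -0.22 in these comparisons, against -0.09, -0.02 and -0.08 over all tested genes. Without the libraries that stood apart, 12, 1 and 6 of these genes were changed. The lists were chosen with earlier results of these data known, so nothing is read from these counts. The same holds for the counts of single lists. None of the 11 matrix proteoglycan genes was listed highly enough to be tested in 9 libraries. Of 6 tested basement membrane genes, 5 were not changed under TXX-1-10, and their list had a median log2FC of -0.02, against -0.09 over all genes. In the fit on 8 libraries 9 of 12 were not changed, with a median of -0.28 against -0.04. Under rimonabant, in 9 libraries, 6 of 6 were not changed, with a median of -0.49 against -0.02.

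Of the other collagens, both genes tested in 9 libraries fell under TXX-1-10, with a median log2FC of -1.29. In the fit on 8 libraries 1 of 6 was higher and 3 lower, with a median of -0.68. With 7 libraries 1 of 7 was higher and 4 lower, with a median of -1.03. COL12A1, a fibril-associated collagen, had a mean of 31.2 FPKM in vehicle, 16.0 in rimonabant and 10.6 in TXX-1-10 libraries, a log2FC of -1.56 under TXX-1-10 (SE 0.17, edgeR adjusted p = 1.36e-05). COL13A1, a transmembrane collagen, had a log2FC of -1.01 (edgeR adjusted p = 1.93e-07), which passed the threshold in 13 of 20 alternative settings. Among 4 tested glycoproteins of elastic fibres and related matrix, TGFBI, an integrin-binding matrix protein, fell from 7.25 to 2.11 FPKM (log2FC -1.78, edgeR adjusted p = 6.91e-09).

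Matricellular genes had 1 of 4 tested members higher and 3 lower under TXX-1-10 in the fit on 9 libraries. In the fit on 8 libraries 3 of 6 were higher and 3 lower, and the median log2FC of the list went from -1.63 to -0.17. In the fit on 7 libraries 3 of 7 were higher and 3 lower, with a median of 0.66. CTGF and CYR61, secreted CCN proteins and known targets of YAP and TEAD, had mean levels of 160 and 718 FPKM in vehicle, 141 and 677 in rimonabant and 21.9 and 192 in TXX-1-10 libraries. Their log2FCs were -2.87 (edgeR adjusted p = 3.35e-10) and -1.91 (edgeR adjusted p = 3.79e-09) under TXX-1-10. Under rimonabant they were -0.18 and -0.08, and the direct comparison of the compounds gave -2.69 (edgeR adjusted p = 1.82e-09) and -1.82 (edgeR adjusted p = 1.39e-08). The galectin genes went opposite ways. LGALS1 fell by 1.34 on the log2 scale (edgeR adjusted p = 2.28e-06). LGALS3 rose by 1.0 (edgeR adjusted p = 2.04e-06) but by 0.92 without the libraries that stood apart, which is short of the threshold.

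Of 14 tested genes for collagen synthesis and crosslinking, 2 fell under TXX-1-10 and none rose past the thresholds, beside 11.8% of all tested genes. LOXL2, a lysyl oxidase that crosslinks collagen, had 49.5, 52.4 and 54.2 FPKM in vehicle libraries, 26.4, 26.8 and 25.7 with rimonabant and 12.9, 12.9 and 11.9 with TXX-1-10. Its log2FC was -2.05 under TXX-1-10 (SE 0.05, edgeR adjusted p = 6.62e-10), and -0.98 under rimonabant, just short of the threshold. TGM2, a transglutaminase that crosslinks fibronectin, had 63.0, 63.7 and 63.9 FPKM in vehicle libraries, 24.6, 23.6 and 24.8 with rimonabant and 18.1, 17.7 and 16.3 with TXX-1-10. It was the 1 gene of the 43 that rimonabant changed, with a log2FC of -1.39 (SE 0.05, edgeR adjusted p = 7.49e-08), and under TXX-1-10 it was -1.87 (edgeR adjusted p = 7.51e-10).

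Among 13 tested matrix receptors, 1 rose and 2 fell under TXX-1-10, beside 11.8% of all tested genes. ITGA2, the collagen-binding integrin alpha 2 chain, rose from a mean of 20.0 to 50.8 FPKM (log2FC 1.35, edgeR adjusted p = 4.95e-06). ITGA6, a laminin-binding chain, fell by 1.13 on the log2 scale (edgeR adjusted p = 2.85e-08) and SDC1, the proteoglycan syndecan-1, by 1.16 (edgeR adjusted p = 7.77e-08). PBXIP1 encodes HPIP, the protein that the screen behind TXX-1-10 aimed to lower. Its mean level was 8.45 FPKM in vehicle, 11.9 in rimonabant and 15.5 in TXX-1-10 libraries. The log2FC was 0.88 under TXX-1-10 (edgeR adjusted p = 9.58e-08 in the fit on 8 libraries), below the fold threshold. The paper, by contrast, reports that TXX-1-10 lowered HPIP mRNA (RT-qPCR) and protein with dose in this line. Dose and time of the sequenced cells are not given, so these measures cannot be matched.

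**Figure D5:**
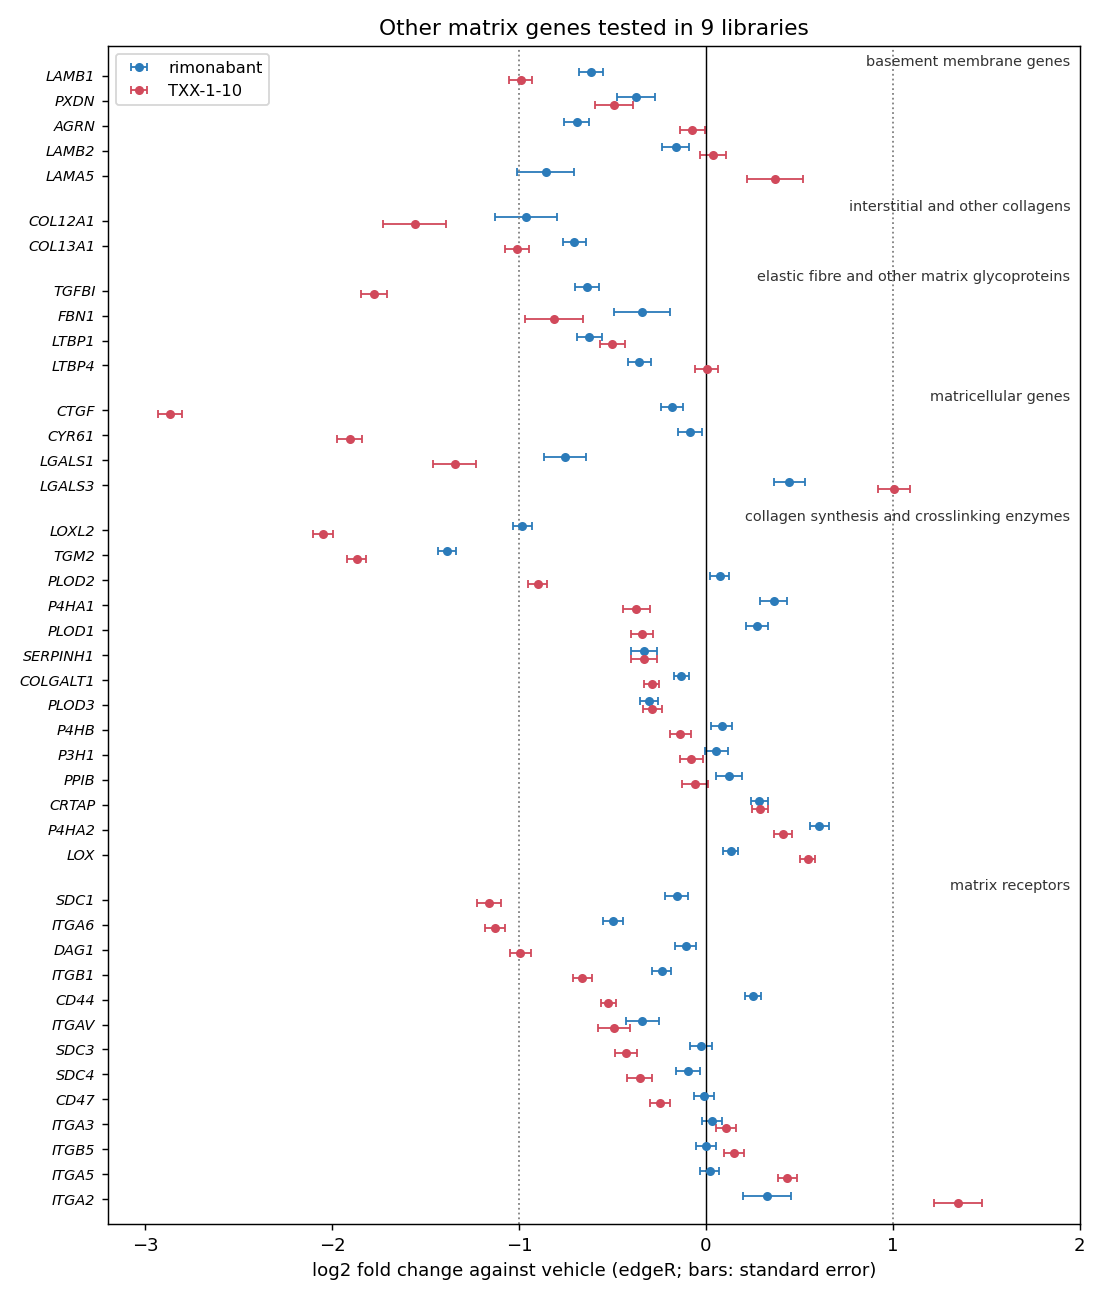
Log2FC against vehicle (horizontal axis) of other matrix genes tested in 9 libraries, grouped by list, under rimonabant (blue) and TXX-1-10 (red), with bars for SEs and dotted lines at the fold threshold. CTGF lies at -2.87 and ITGA2 at 1.35 under TXX-1-10, and TGM2 is past the threshold under rimonabant (-1.39).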

How the data were processed

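RNA of MDA-MB-231 cells was selected with oligo(dT) and sequenced by the authors. HISAT2 2.0.5 and featureCounts 1.5.0-p3 are named in the submitters' processing notes. The authors deposited whole-number read counts per gene without normalization. The authors also deposited FPKM values, made from the count, the gene length and a library total. Lists end at different points of an order from high to low counts, so many genes of low count are missing from 1 or more lists.

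The members and gene lists were chosen with earlier results of these data known. Counts were fitted with edgeR 4.0.16 (quasi-likelihood test, R 4.3.3), the total behind the FPKM values as library size and Benjamini-Hochberg adjustment over the 4236 genes with a mean FPKM of at least 1 in 9 libraries. EFEMP1, LAMA3 and PBXIP1 were fitted on 8 libraries (9369 genes) and FBLN1 on 7 without the filter (11740 genes). Changed means a log2 fold change of at least 1 in size and adjusted p under 0.05. Standard errors derive from the F statistic and are approximate. The named genes were the members, their trimer partners, up to 4 changed genes per list with the largest change under TXX-1-10, any changed by rimonabant, the 5 genes most like THBS1, and PBXIP1, except 1 gene that is counted but not reported here. The fits were tested on simulated data. Alternatives were TMM, DESeq2 1.42.0, limma 3.58.1 on log2(FPKM + 1) and log2(FPKM + 0.1), other filters, a length correction, a replicate block, fits of 2 groups only and leaving out libraries. Coordinates are those of GENCODE 29 (GRCh38), and promoter windows are from RefSeq (GRCh38.p14).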

Additional observations from a re-analysis of the deposited data

How the results depend on the processing

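Wider gene sets, which test more genes in fewer libraries, moved the counts of changed genes most, and the part of each was not tested. With 8 libraries (9369 genes tested) the counts were 1187 under TXX-1-10, 140 under rimonabant and 601 between the compounds. With 7 libraries (11200 genes) they were 1567, 237 and 779, against 500, 48 and 251 with 9 (4236 genes). Other matrix genes changed under TXX-1-10 numbered 22 of 72 tested and 25 of 82 (13 of 43 with 9 libraries). Under rimonabant they numbered 3 of 72 and 6 of 82 (1 of 43). Between the compounds 12 of 82 were changed with 7 libraries (7 of 43). With limma on log2(FPKM + 1) the last was 4, and the cause was not tested. With each library left out in turn, other matrix genes changed by rimonabant were 1 to 2, with 2 without vehicle replicate 1 or rimonabant replicate 2. No member changed the direction of a called value. FN1 under rimonabant fell short of the fold threshold in 4 of 20 settings, COL4A1 under TXX-1-10 in 1 of 19 (-0.97, limma on log2(FPKM + 1)), and FBLN1 under rimonabant in 2 of 16 (-0.54 and -0.98, limma on log2(FPKM + 1) and log2(FPKM + 0.1)) and between the compounds in 1 of 16 (-0.53, limma on log2(FPKM + 1)). LAMB3 under TXX-1-10 lay between -0.01 and 0.10. DESeq2 scaling shifted the median of all genes under TXX-1-10 by 0.10.

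The replicate block gave 501, 48 and 250 changed genes, and 13, 1 and 7 other matrix genes. Deviations of same-numbered libraries correlated by -0.06, 0.03 and -0.09 between TXX-1-10 and vehicle, and by -0.79, 0.80 and -0.59 between the compounds. The values between the compounds include the length trend of rimonabant replicate 1 and TXX-1-10 replicate 3. They therefore cannot show whether same-numbered libraries belong together. The labels give no pairing beyond the number. Depth limits FBLN1, with 18 to 32 reads under TXX-1-10.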
